A study of Saccharomyces cerevisiae with 4 samples.

Results

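The mitochondrial ribosomal proteins of budding yeast were taken as the open reading frames (ORFs) whose standard symbol starts with MRPL, MRPS or RSM, or with MRP followed by a digit, together with IMG1 and IMG2. This choice by name gave 69 genes of the 6301 ORFs listed on the arrays. No measured value entered the rule, but it was chosen with earlier results of these data known. The large subunit held 39 of them and the small subunit 28, and 2 genes, MRP35 and MRP8, were assigned to neither subunit. Values on at least 3 of the 4 arrays were required for testing, which kept 66 genes, 60 of them with values on every array and 6 with values on 3 arrays. MRPL7, MRPL15 and MRP10 carried no value on any array.

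*Saccharomyces cerevisiae* strain S288c was compared between a nitrogen-rich synthetic complete medium (SC) and a nitrogen-poor minimal medium (MM). Cells were grown in SC at 30 °C to mid log phase, and for nitrogen depletion were moved for 12 h to MM with 0.025% ammonium sulfate and neither amino acids nor adenine. Both media share the strain, and the move changed amino acids, adenine and ammonium together. No separate harvest time is given for the SC cells, so time and growth state may differ between the media too. The RNA of both media was hybridized on each of 4 two-color arrays of ORFs, 2 in each dye orientation, after reverse transcription from a degenerate multi-targeted primer (MTP) and oligo-dT. Ratios are given as the log2 of MM over SC, so that a positive value stands for a gene abundantly expressed in the nitrogen-poor medium and a negative value for a gene meagerly expressed there. A gene is called higher or lower where the adjusted p of limma, with Benjamini-Hochberg adjustment over all 5956 ORFs tested, was at most 0.05. Array values are given in the order MM in Cy5 replicate 1, MM in Cy5 replicate 2, SC in Cy5 replicate 1 and SC in Cy5 replicate 2, as the titles name them. In RNA from whole cultures, fewer cells with a transcript and less of that transcript per cell cannot be told apart.

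Mitochondria carry their own ribosome, built on a large and a small subunit, which makes the few proteins that mitochondrial DNA encodes. Nearly all of its proteins are encoded in the nucleus, made in the cytosol and imported, and many descend from bacterial ribosomal proteins, whereas others occur only in mitochondrial ribosomes. Yeast needs this ribosome to respire, because its products are mainly subunits of the respiratory chain and of the ATP synthase.

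RSM24, a small-subunit protein, was the gene to which quantitative RT-PCR was referred in this study, so its primers are shown here with its own array values. Both are 20 nt long, and the gene lies on chromosome IV. They are written 5′ to 3′ in lower case, with no part singled out.
RSM24 forward: tctctcggggtaatttgtgg
RSM24 reverse: tgctgaaaaagctggtcctt
Across the 4 arrays, RSM24 stood at -0.04, -0.07, 0.12 and 0.11, a mean of 0.03 with a standard error (SE) of 0.06. The arrays of one dye orientation lay just below 0 and those of the other just above it. The medians of all ORFs tested were split in the same way, at -0.03, -0.03, 0.06 and 0.11, so this pattern was not particular to RSM24. With the arrays centered, its mean was 0.01. The 95% interval of the mean ran from -0.11 to 0.18 and the adjusted p was 0.658. The paper describes this control gene as unchanged on its microarrays, so these values are not an independent check of it.

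Of the 66 tested mitochondrial ribosomal genes, 23 were higher and 12 were lower in nitrogen-poor medium, while 31 did not pass the test. The higher genes made up 34.8% of those tested, next to 33.8% of all ORFs, and the lower genes 18.2%, next to 31.5% of all ORFs. The share called in either direction was 53.0%, against 65.3% of all ORFs. The median log2 ratio of the genes was 0.13, with the middle of the distribution between -0.08 and 0.29, beside a median of 0.03 over all ORFs tested. Most ratios were small, since 58 of the 66 (87.9%) lay within 0.5 of 0 on the log2 scale, as did 69.4% of all ORFs. Every array with a value was above 0 for 30 of the genes (37.9% of all ORFs had this pattern) and below 0 for 14 (34.3% of all ORFs). The median standard deviation (SD) between arrays was 0.12 for these genes and 0.14 for all ORFs.

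The proteins of the large and of the small subunit were compared to ask whether the subunits moved apart in nitrogen-poor medium. Among the 37 large-subunit genes tested, 13 were higher (35.1%) and 6 were lower (16.2%), and 18 did not pass. Among the 27 small-subunit genes tested, 8 were higher (29.6%) and 6 were lower (22.2%), and 13 did not pass. Without MM in Cy5 replicate 1, MM in Cy5 replicate 2 or SC in Cy5 replicate 1 the large subunit kept 3 lower genes, and without MM in Cy5 replicate 2 there were 5 higher genes in the small subunit. The median log2 ratio was 0.11 for the large and 0.13 for the small subunit, a difference of -0.02. On the single arrays the large-subunit median was 0.12, 0.08, 0.06 and 0.17, and the small-subunit median was 0.07, 0.06, 0.12 and 0.13. Taken before rounding, the large-subunit median minus the small-subunit median was 0.04, 0.02, -0.06 and 0.03, a mean of 0.01 with an SD of 0.05 over the 4 arrays. With all arrays and genes, the subunits thus differed by less than the spread between arrays, with the large subunit ahead on 3 arrays and the small subunit ahead on the other. The difference ran from -0.06 to 0.00 with 1 array left out. It was -0.07 without the 6 genes set apart below as far from the rest. The -0.06 and -0.07 are beyond that SD.

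**Figure D1:**
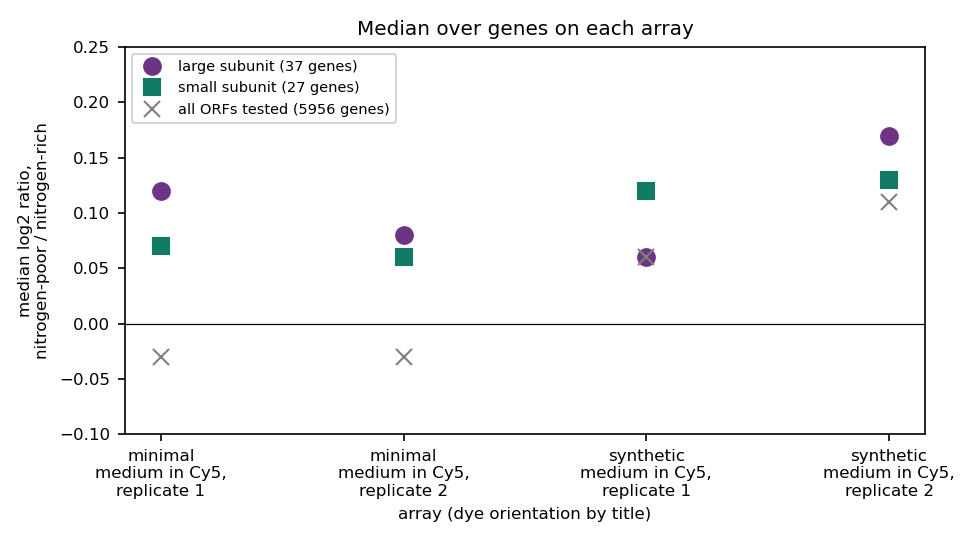
Median log2 ratio (MM over SC) on each array, for 37 large-subunit genes (circles), 27 small-subunit genes (squares) and all 5956 ORFs tested (crosses). The subunit medians lie between 0.06 and 0.17 and change order between arrays, while the median of all ORFs runs from -0.03 to 0.11.

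The subunits differed in their extremes. The large subunit spanned log2 ratios from -0.70 to 4.52, and the small subunit from -1.81 to 0.49. The large subunit held each member with a ratio above 0.5, which were MRP49, MRPL13, MRPL19 and MRPL31. The pair of genes with the lowest ratios of all members, RSM7 and MRPS17, belonged to the small subunit. Naming extremes in this way is a description of these arrays, and the difference between the subunits in spread was not tested.

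**Figure D2:**
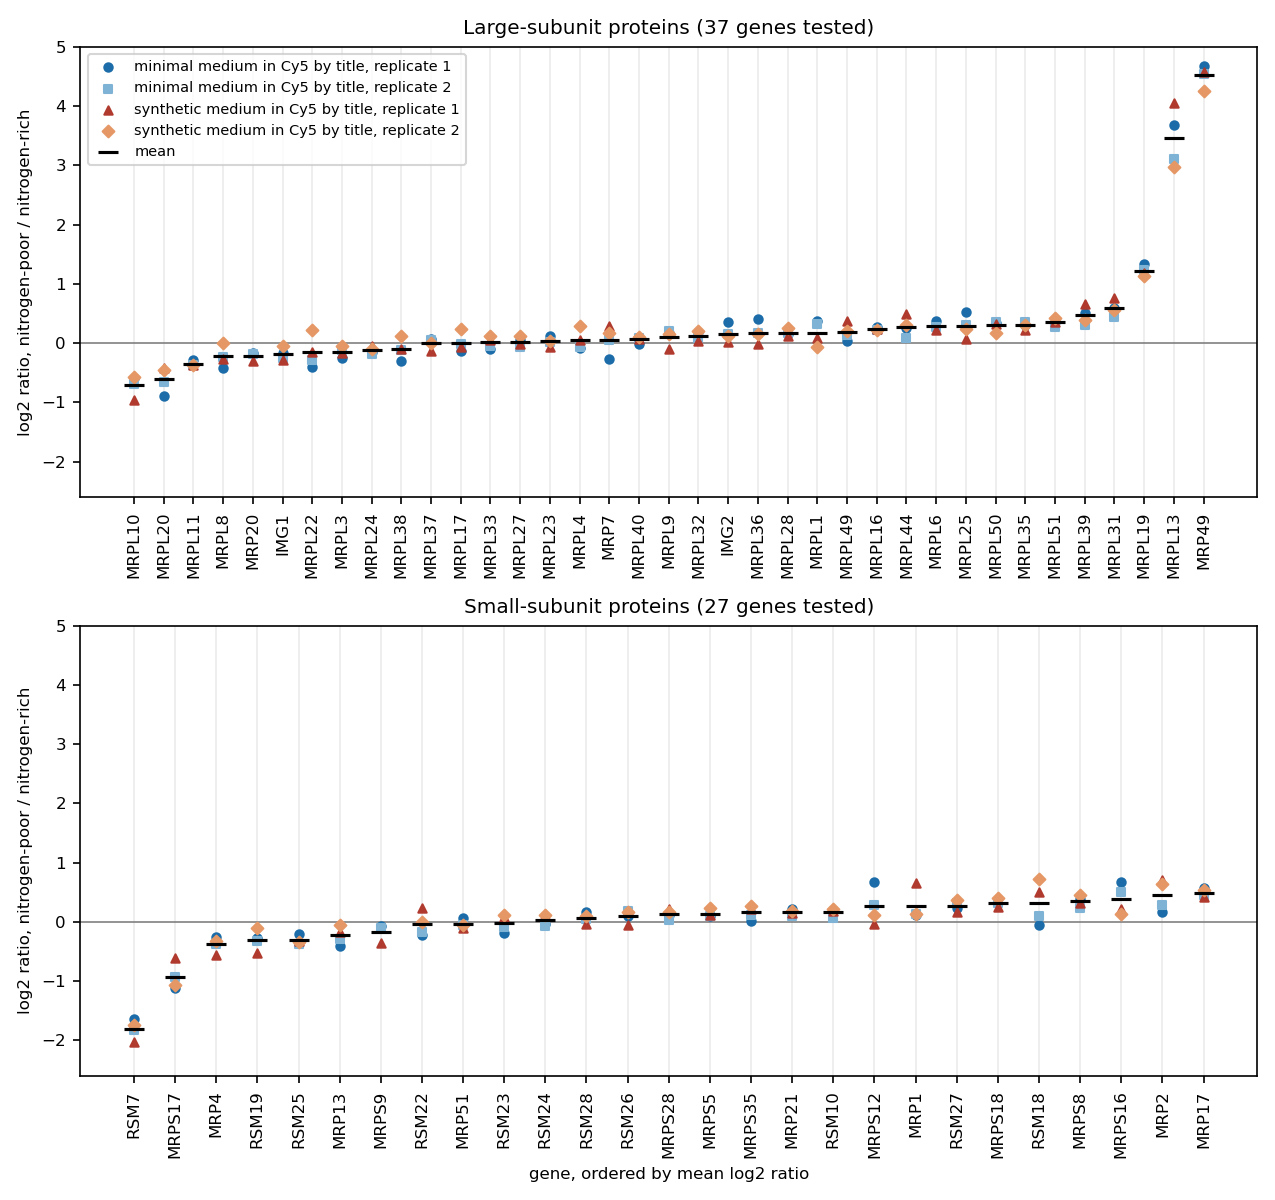
Log2 ratio (MM over SC) of each tested large-subunit gene (37, upper panel) and small-subunit gene (27, lower panel), with 1 symbol per array and a black bar at the mean. Most genes lie near 0, MRP49 (4.52) and MRPL13 (3.46) stand at the top of the large subunit, and RSM7 (-1.81) at the bottom of the small subunit.

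Genes far from the rest were picked as those more than 3 scaled median absolute deviations from the median of the tested members, which set limits of -0.607 and 0.867. The limits set apart 6 genes, 4 of the large and 2 of the small subunit, and 60 lay inside. Without either SC in Cy5 array, MRPL10 lay inside too and 5 genes were left. The gene just inside the lower limit was MRPL20 at -0.605 and the one just outside was MRPL10 at -0.697. At the upper limit the nearest values were 0.59 for MRPL31 inside and 1.22 for MRPL19 outside.

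MRP49, which encodes the large-subunit protein mL61 of the mitochondrial ribosome, had the highest ratio of the members. Its log2 ratios were 4.68, 4.55, 4.57 and 4.26, which differ little between arrays and orientations. The mean was 4.52 (SE 0.08, n = 4 arrays), a 22.9-fold higher level in nitrogen-poor medium with an adjusted p of 6.03e-07, and it ranked 4 among all 5956 ORFs. MRPL13, which encodes mL50 of the large subunit, followed with 3.68, 3.11, 4.06 and 2.98. Its arrays were all far above 0 but spread more, with an SD of 0.51. The mean was 3.46 (SE 0.18), or 11.0-fold, with an adjusted p of 8.46e-06 and rank 16 of all ORFs. MRPL19, the mitochondrial relative of bacterial L11 and called uL11m, read 1.33, 1.23, 1.19 and 1.14, a narrow range well above that of most members. The mean of 1.22 (SE 0.06) corresponded to a 2.33-fold increase with an adjusted p of 6.13e-06.

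RSM7, the mitochondrial form of bacterial S7 (uS7m), had the lowest ratio of the members. Its log2 ratios were -1.64, -1.82, -2.03 and -1.75, with every array below the lowest array of any other member. The mean was -1.81 (SE 0.08), a 3.50-fold lower level in nitrogen-poor medium with an adjusted p of 3.90e-06. MRPS17, the mitochondrial form of bacterial S17 (uS17m), read -1.11, -0.94, -0.61 and -1.06. The mean of -0.93 (SE 0.09) was a 1.90-fold decrease with an adjusted p of 0.000157. MRPL10, which encodes uL15m of the large subunit, read -0.58, -0.68, -0.96 and -0.57. All arrays were below 0, and the mean of -0.70 (SE 0.08) was a 1.62-fold decrease with an adjusted p of 0.000334.

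The neighbors of these 6 genes were the ORFs whose systematic names carry the same chromosome arm and a number within 2 of theirs. There were 26 such ORFs listed and 23 tested. Of the 23, 6 were called in the same direction as their ribosomal neighbor, 11 were called in the opposite direction and 6 did not pass the test, where 65.3% of all ORFs were called in either direction. A shared sign, whether called or not, was found for 9 of the 23.

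MRP49 lies on the left arm of chromosome XI between genes that moved the other way or lay close to 0. TPK3, a catalytic subunit of protein kinase A, was lower at -0.21 (adjusted p = 0.0155, or 0.0538 without MM in Cy5 replicate 1), and the protein kinase gene KKQ8 at -0.33 (adjusted p = 0.0112). A further number away, MCD4, an enzyme of glycosylphosphatidylinositol anchor synthesis, was lower at -1.50 (adjusted p = 2.15e-05), and YKL169C, an ORF that is not in the R64 gene table, had a mean of 0.00. The high ratio of MRP49 was thus not seen in any ORF within 2 numbers of it.

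MRPL13, on the right arm of the same chromosome, had a neighbor of similar height. YKR005C, an ORF with no standard name, read 4.55, 4.37, 4.81 and 3.91, a mean of 4.41 (SE 0.14) with an adjusted p of 1.40e-06. The array with the highest value was the same for YKR005C and MRPL13, and so was the array with the lowest value. The R64 gene table does not give these genes an overlap. The other neighbors were far lower, with 0.36 for ECM9 (adjusted p = 0.00203), 0.17 for MEH1, a protein of the vacuolar EGO complex (adjusted p = 0.0494, and up to 0.155 with 1 array left out), and 0.20 for RSC4, a subunit of the RSC chromatin remodeler, which did not pass the test (adjusted p = 0.0654), with means from 0.13 (adjusted p = 0.208) without SC in Cy5 replicate 1 to 0.29 (adjusted p = 0.0176) without MM in Cy5 replicate 1. Over the whole table, 23 ORFs had a mean log2 ratio above 3, and 4 of these had a tested ORF above 3 at the next number. MRPL13 and YKR005C are themselves among those 4.

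MRPL19 stood alone in direction on its stretch of chromosome XIV. YNL184C, whose coordinates overlap those of MRPL19, was lower at -0.42 (adjusted p = 0.00498). NPR1, a protein kinase that controls amino acid permeases, was lower at -0.34 (adjusted p = 0.00636), UBP10, a ubiquitin protease, at -0.25 (adjusted p = 0.00654) and SWT21, a protein linked to splicing, at -0.94 (adjusted p = 6.36e-05). All of the ORFs tested within 2 numbers of MRPL19 were therefore called in the opposite direction.

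RSM7 had lower neighbors on one side of it on chromosome X. PXP2, a peroxisomal protein, was lower at -2.26 (adjusted p = 1.40e-06), beyond RSM7 itself, and NNF1, a kinetochore protein, was lower at -0.67 (adjusted p = 0.000845). On the other side YJR114W had a mean of 0.03 (adjusted p = 0.821), and YJR115W was higher at 1.28 (adjusted p = 4.09e-05). YJR114W is not in the R64 gene table, so an overlap with RSM7 could not be checked.

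The neighbors of MRPS17 and MRPL10 did not fall with them, apart from 1 ORF. Next to MRPS17 on chromosome XIII, YMR187C was higher at 0.63 (adjusted p = 0.000713), while HSC82, an Hsp90 chaperone, GCV2, the glycine decarboxylase of the glycine cleavage system, and SGS1, a RecQ helicase, had means of -0.04, -0.03 and 0.00 and did not pass. Next to MRPL10 on chromosome XIV, WSC2, a sensor of the cell wall, was higher at 0.65 (adjusted p = 7.34e-05) and CUS2, a splicing factor, at 0.28 (adjusted p = 0.0185). POP3, a protein of RNase P and RNase MRP, was lower at -0.30 (adjusted p = 0.0117), and 3 ORFs near MRPL10 had no value. The calls of CUS2 and POP3 rest on 3 arrays and were lost without MM in Cy5 replicate 2, that of CUS2 also without SC in Cy5 replicate 1.

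**Figure D3:**
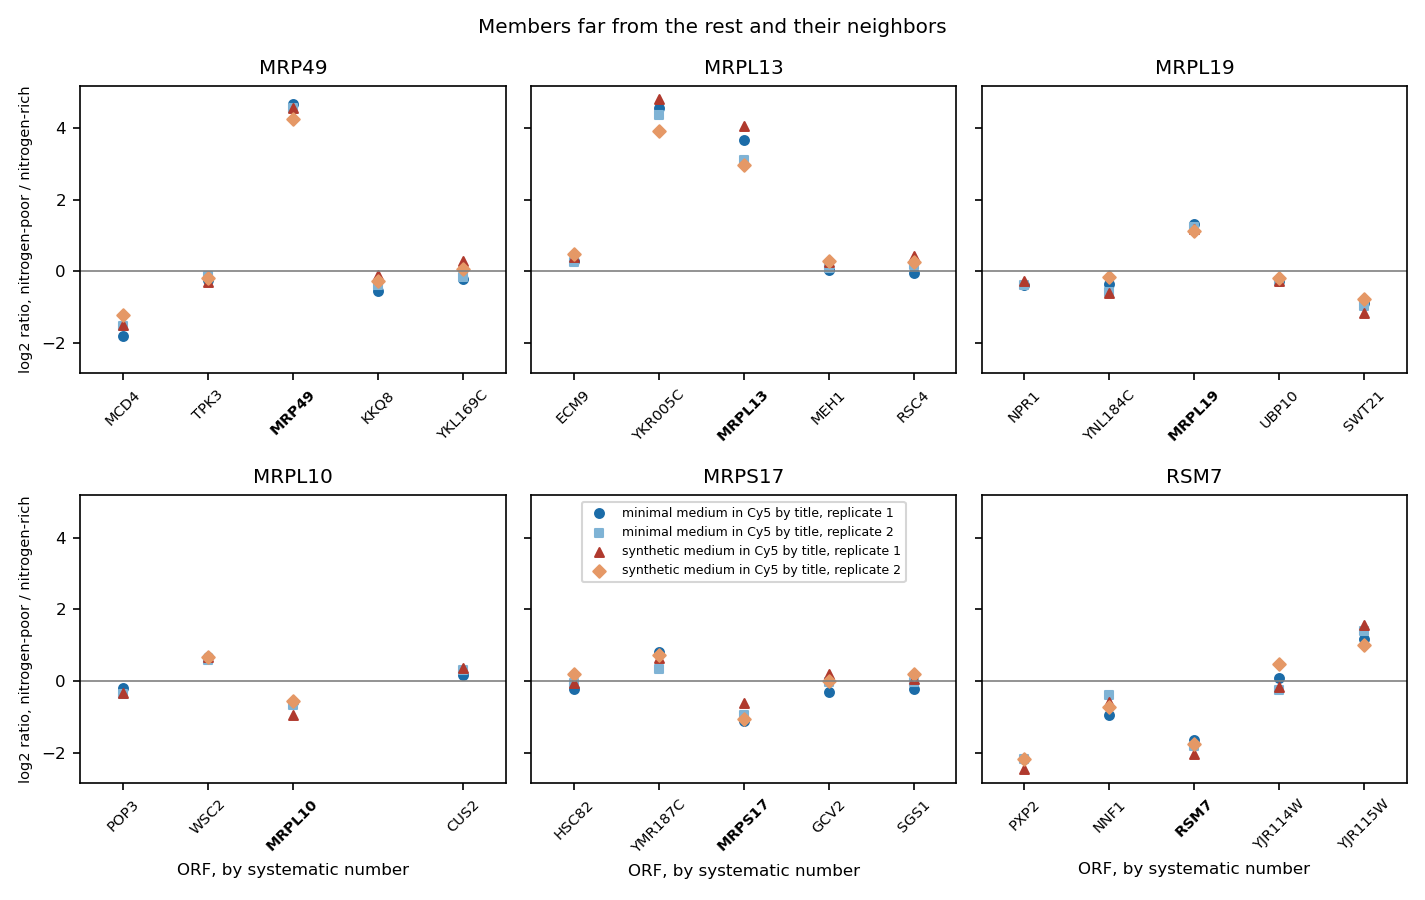
Log2 ratio (MM over SC) on each array for the 6 mitochondrial ribosomal genes far from the rest (bold) and for the measured ORFs within 2 systematic numbers of each. MRPL13 (3.46) and YKR005C (4.41) lie high side by side, whereas no neighbor of MRP49 (4.52) or of MRPL19 (1.22) has a mean above 0.00.

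Apart from those genes, the large subunit held higher genes of modest size. MRPL31, which encodes mL60, read 0.60, 0.44, 0.76 and 0.56, a mean of 0.59 (SE 0.07) with an adjusted p of 0.00033. MRPL39, the mitochondrial form of bacterial L33, read 0.51, 0.30, 0.66 and 0.40, a mean of 0.47 (SE 0.07) with an adjusted p of 0.00138. Both were above 0 on every array. A further 8 large-subunit genes were called higher, with mean log2 ratios from 0.18 for MRPL28 to 0.36 for MRPL51. The calls of MRPL6 and MRPL25 (both 0.29) were lost without either MM in Cy5 array, and that of MRPL28 without either of these or SC in Cy5 replicate 2. The highest of these, MRPL51, overlaps YPR099C on the annotation, and both were higher, at 0.36 and 0.40.

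Lower genes of the large subunit were led by MRPL20, which encodes mL58. It read -0.89, -0.66, -0.41 and -0.46, a mean of -0.60 (SE 0.09) with an adjusted p of 0.00109. The arrays with MM in Cy5 by title gave the lower values, without overlap. MRPL11, the mitochondrial form of bacterial L10 (uL10m), was lower at -0.35 (adjusted p = 0.00119) with arrays between -0.37 and -0.29. MRPL8 (bL17m), MRP20 (uL23m) and IMG1 (bL19m) were called lower with small means of -0.22, -0.21 and -0.19. MRPL8 was called although 1 array stood at 0.01, and its adjusted p was 0.0389, beside 0.0369 for MRP20 and 0.0324 for IMG1. Each of these 3 calls was lost without MM in Cy5 replicate 1, without MM in Cy5 replicate 2 and without SC in Cy5 replicate 1. MRPL37, which encodes mL54, lay nearest to 0 in the large subunit, with a mean of 0.00 and a 95% interval from -0.14 to 0.14.

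In the small subunit the highest ratio was that of MRP17, the mitochondrial form of bacterial S6. It read 0.57, 0.46, 0.42 and 0.53, a mean of 0.49 (SE 0.06) with an adjusted p of 0.000301, and its arrays lay close together. MRP2 (uS14m) and MRPS16 (bS16m) were also higher, at 0.45 (adjusted p = 0.00762) and 0.38 (adjusted p = 0.013), but with arrays that split by orientation. MRP2 read 0.16 and 0.29 with MM in Cy5 and 0.70 and 0.64 with SC in Cy5. MRPS16 split the other way, with 0.67 and 0.50 against 0.22 and 0.13, and its call was lost without MM in Cy5 replicate 2 (adjusted p = 0.0539). MRPS8, the mitochondrial form of bacterial S8, was higher at 0.35 (adjusted p = 0.00232), whereas RSM18 (bS18m) averaged 0.32 and did not pass (adjusted p = 0.0687), with means from 0.18 (adjusted p = 0.217) without SC in Cy5 replicate 2 to 0.44 (adjusted p = 0.0125) without MM in Cy5 replicate 1. The other higher genes of the small subunit were MRPS18 (0.32), RSM27 (0.27), RSM10 (0.17) and MRP21 (0.16), of which RSM10 and MRP21 lost their call whichever array was left out.

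The lower genes of the small subunit were of modest size after RSM7 and MRPS17. MRP4, the mitochondrial form of bacterial S2 (uS2m), read -0.26, -0.37, -0.56 and -0.33, a mean of -0.38 (SE 0.07) with an adjusted p of 0.00235. YHL005C, which overlaps MRP4 on the annotation, had a mean of 0.17 and did not pass (adjusted p = 0.265). RSM25 (mS23) and RSM19 (uS19m) were both lower at -0.31, with adjusted p of 0.00261 and 0.0104, and MRP13 (mS44) at -0.23 (adjusted p = 0.0287). The call of MRP13 was lost without either MM in Cy5 array and without SC in Cy5 replicate 1. RSM19 is the only member next to another by number. Its neighbor MRPS12, which encodes uS12m of the decoding region, had a mean of 0.26 with arrays of 0.67, 0.28, -0.03 and 0.12 and did not pass (adjusted p = 0.0823). RSM23, which encodes mS29, lay nearest to 0 in the small subunit, with a mean of -0.02 and a 95% interval from -0.19 to 0.15.

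The genes without a subunit here were both higher on 3 arrays each. MRP35, whose uniform name bL35m places it with bacterial L35, read 0.28, 0.41 and 0.32 and averaged 0.34 (SE 0.07, adjusted p = 0.00685). MRP8, which carries no uniform ribosomal name, read 0.13, 0.45 and 0.30 and averaged 0.29 (SE 0.08, adjusted p = 0.0256). With MRP35 counted to the large subunit, 14 of its 38 tested genes were higher and its median was 0.12. The call of MRP35 was lost without MM in Cy5 replicate 2, and that of MRP8 without either SC in Cy5 array.

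The uniform names of ribosomal proteins separate those with a bacterial counterpart (u or b) from those described only in mitochondria (m). Among 41 tested genes of the bacterial type, 13 were higher (31.7%) and 9 lower (22.0%), and the median was 0.13. Among 23 of the mitochondrial type, 9 were higher (39.1%) and 3 lower (13.0%), and the median was 0.16. Over all ORFs the shares were 33.8% higher and 31.5% lower. In the large subunit, 8 of 14 mitochondrial-type genes were higher and 1, MRPL20, was lower, with a median of 0.23, while 6 of 24 bacterial-type genes, MRP35 among them, were higher and 5 lower (median 0.06). In the small subunit the order was turned, with 1 of 9 mitochondrial-type genes higher and 2 lower (median 0.06), and 7 of 17 bacterial-type genes higher and 4 lower (median 0.16). These counts describe the genes on these arrays, and the difference between the types was not tested.

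Shorter genes had the higher ratios. With members split at the median gene length of 657 bp, 19 of the 33 shorter ones were higher and 3 lower, and their median log2 ratio was 0.27. Of the 33 longer ones, 4 were higher and 9 lower, and the median was 0.01. Across the 66 genes, Spearman's rho between gene length and mean log2 ratio was -0.46, and on the single arrays -0.43, -0.42, -0.30 and -0.35. The sign was the same within the large (-0.37) and the small subunit (-0.52), and rho was -0.45 without the 6 genes far from the rest. Other protein-coding ORFs showed the same sign, with a rho of -0.21 across 5423 ORFs, and 489 of the 987 that were no longer than 657 bp were higher and 181 lower. Of the 4436 longer ones, 1319 were higher and 1601 lower. The genes of a correlation share the same 4 arrays and are not independent replicates, so no p is given, and the part that the length of the spotted ORF or of the transcript had in these ratios was not tested.

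**Figure D4:**
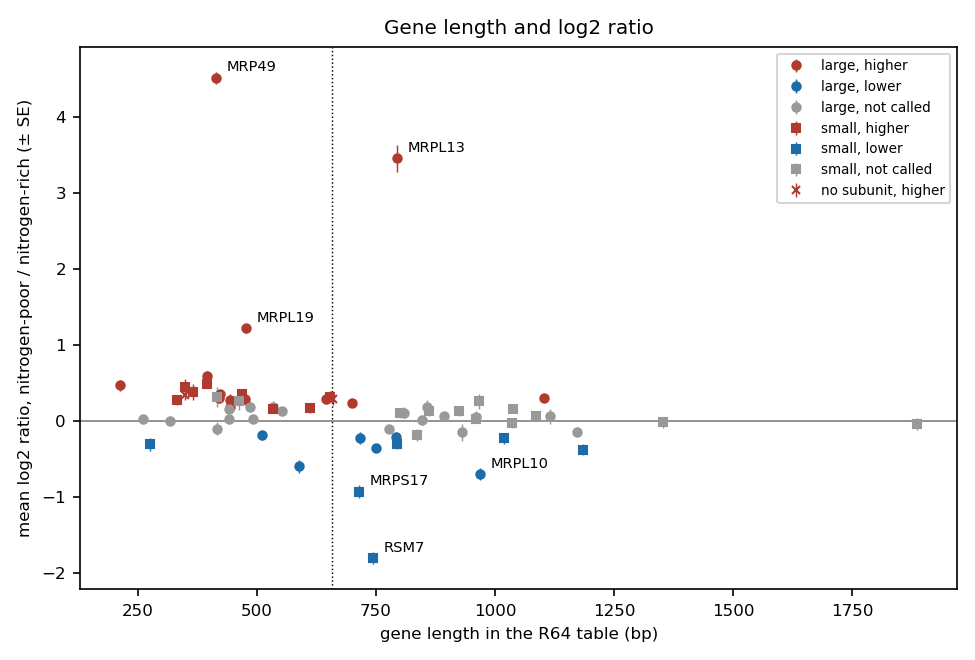
Mean log2 ratio (MM over SC, ± SE) against gene length in bp for the 66 tested members, by subunit (symbol) and call (color), with a dotted line at the median length of 657 bp. Left of the line 19 genes are called higher and 3 lower, and right of it 4 are called higher and 9 lower.

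The dye orientations were compared because each medium was carried by both dyes in turn. Among the 60 members with values on all arrays, none passed an adjusted p of 0.05 for the orientation term of limma, and the smallest was 0.113. Unadjusted, 9 of the 60 members passed 0.05, beside 23.0% of all ORFs, of which 1 of 5231 (0.0191%) passed after adjustment. The 23.0% is above the share that a threshold of 0.05 passes by chance. The values of the orientations did not overlap for 33 members (55.0%), beside 56.8% of all ORFs. The medians of all ORFs tested also differed, with -0.03 and -0.03 for MM in Cy5 by title and 0.06 and 0.11 for SC in Cy5. With 2 arrays per orientation, the lack of members passing after adjustment does not show the orientations to be alike. The widest gap was in RSM18, with a mean of 0.02 where the title puts MM in Cy5 and 0.61 where it puts SC in Cy5. MRP2 followed with 0.22 and 0.67, MRPS12 with 0.48 and 0.04, and MRPS16 with 0.58 and 0.17.

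The other genes of mitochondrial translation were looked at in lists beside the members, and their counts are to be read against 33.8% higher and 31.5% lower calls over all ORFs. Of the 11 mitochondrial ribosomal proteins with names outside the rule, 8 were tested, 3 were higher (37.5%) and 1 was lower (12.5%). NAM9 (uS4m) was higher at 0.50 (adjusted p = 0.000905), FYV4 (mS41) at 0.43 (adjusted p = 0.00224) and PET123 (mS26) at 0.24 (adjusted p = 0.00669), all of the small subunit. SWS2 (uS13m) was lower at -0.36 (adjusted p = 0.00188). RML2 (uL2m), YML6 (uL4m), MHR1 (mL67) and EHD3 (mS47) averaged 0.01, -0.11, -0.08 and 0.00 and did not pass, although MHR1 was lower without MM in Cy5 replicate 1 (-0.21, adjusted p = 0.0455). MNP1, RTC6 and VAR1, the last of them encoded in mitochondrial DNA, had no value.

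Of the 8 translation factors, 7 were tested, 3 were higher (42.9%, beside 33.8% of all ORFs) and none was lower. MEF2, an elongation factor G relative that acts in ribosome recycling, read 1.07, 1.00, 1.15 and 1.03, a mean of 1.06 (SE 0.06) with an adjusted p of 9.03e-06. RRF1, the ribosome recycling factor, was higher at 0.30 (adjusted p = 0.0375), and AIM23, initiation factor 3, at 0.26 (adjusted p = 0.0136). The elongation factors TUF1 and MEF1 averaged 0.09 and 0.11, the release factor MRF1 averaged 0.17 and the elongation factor 4 relative GUF1 averaged 0.09, none of which passed, although MRF1 did without MM in Cy5 replicate 1 (0.23, adjusted p = 0.031). The call of RRF1 was lost without any 1 array but SC in Cy5 replicate 1, and that of AIM23 without SC in Cy5 replicate 2. IFM1, initiation factor 2, had values on 2 arrays, 0.21 and 0.27, and was not tested.

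Translational activators, which bind the leaders of single mitochondrial mRNAs or help to translate them, moved both ways. Of 13 listed, 11 were tested, 2 were higher (18.2%, beside 33.8% of all ORFs) and 4 were lower (36.4%, beside 31.5%). CBS1, an activator of cytochrome b synthesis, was higher at 0.48 (adjusted p = 0.000577) and PET54, which acts on COX3, at 0.15 (adjusted p = 0.0434). CBP1, needed for the stability of the cytochrome b mRNA, was lower at -0.58 (adjusted p = 0.000122), AEP2 at -0.51 (adjusted p = 0.00053), SOV1 at -0.40 (adjusted p = 0.0361) and AEP1 at -0.32 (adjusted p = 0.00632). The remaining 5 tested genes, among them MSS51 at -0.01, did not pass. PET54 lost its call whichever array was left out, and SOV1 without either MM in Cy5 array or SC in Cy5 replicate 1.

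Of the 6 genes of ribosome assembly and rRNA modification, all were tested, 1 was higher (16.7%, beside 33.8% of all ORFs) and 4 were lower (66.7%, beside 31.5%). MRM1, a methyltransferase of the large mitochondrial rRNA, read -1.31, -1.25, -1.18 and -1.12, a mean of -1.22 (SE 0.06) with an adjusted p of 6.21e-06. MRM2, another methyltransferase of the same rRNA, was higher at 0.38 (adjusted p = 0.00555). MTG1, a GTPase of ribosome assembly, was lower at -1.11 (adjusted p = 0.000146), as were the helicases MSS116 at -0.52 (adjusted p = 0.000257) and MRH4 at -0.30 (adjusted p = 0.00927). MTG2, also a GTPase, averaged -0.12 and did not pass (adjusted p = 0.237).

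**Figure D5:**
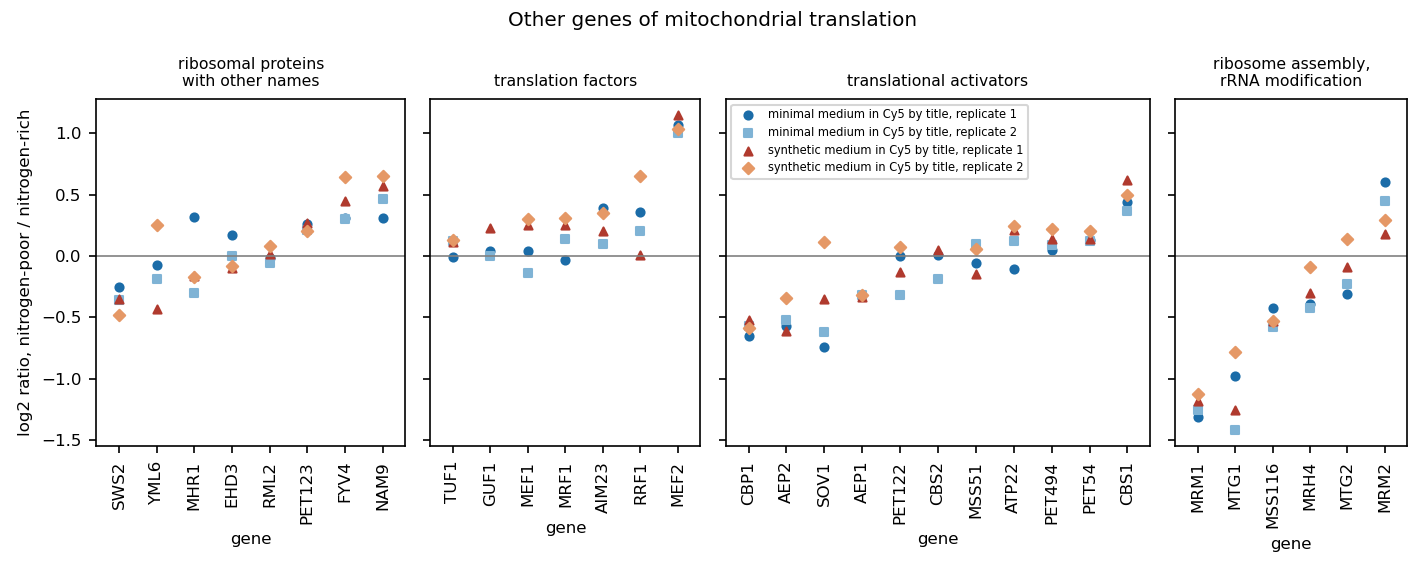
Log2 ratio (MM over SC) on each array for mitochondrial ribosomal proteins with other names, translation factors, translational activators and genes of ribosome assembly and rRNA modification. MEF2 (1.06) is the highest of them, and MRM1 (-1.22) and MTG1 (-1.11) are the lowest.

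On the chromosomes, the members were scattered. Chromosomes IV and XIV held 10 tested genes each and chromosome XI held 8. Those on chromosome XI ranged from -0.60 for MRPL20 to 4.52 for MRP49, and those on chromosome IV from -0.35 to 0.30.

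At the study's threshold of 0.05, applied here to limma's unadjusted p for the direction observed, 34 of the 66 tested members were higher and 15 lower. The study's own calls came from a different, Bayesian program and are not these counts. Of all 5956 ORFs tested, 2337 (39.2%) were higher and 2142 (36.0%) lower at this threshold. It gave 18 higher and 8 lower genes among the 37 tested of the large subunit, and 14 and 7 among the 27 tested of the small subunit.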

How the data were processed

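The deposited values are log2 ratios for each ORF, which the authors made from GenePix scans by background subtraction and mean-by-mean normalization. Cells are empty where a spot failed the authors' minimum signal over background. Titles and channel descriptions disagree on the dyes, so the direction was set against the study's supplementary levels. Over 1737 to 1924 ORFs per array, the correlation with these levels was between 0.964 and 0.983 and the slope between 0.98 and 1.04. The levels are the study's own microarray results, so this check sets the direction and is no independent support for the values. The arrays held 5548 to 5992 values with medians from -0.03 to 0.11, below 0 where the title puts MM in Cy5 and above 0 where it puts SC in Cy5. They come from independent reverse transcriptions, and the number of cultures is not stated, so p-values measure only the spread between arrays, which may be technical.

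Ratios were fitted with limma 3.58.1 in R 4.3.3, with 1 coefficient, on ORFs with at least 3 values. The study's own program, BAGEL, was not run. The fit was tested on simulated data. Symbols, uniform names, lengths and overlaps were taken from NCBI's R64 gene table, in which 5801 ORFs were found. The members and lists were chosen with earlier results of these data known. Named genes were the members far from the rest with their neighbors, the 5 highest and 5 lowest of each subunit, the one nearest 0, RSM24, the members without subunit or value, members with 1 array apart, and the listed genes of translation. Other members were named after their values were seen. Promoter, 3′ and protein sequences were not analysed here, so the planned motif counts were not made. As alternatives, single arrays were omitted, columns were centered and scaled, terms for dye orientation or replicate number were fitted, same-numbered arrays were averaged, and the minimum of values, the variance and the threshold were varied.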

Additional observations from a re-analysis of the deposited data

Results flagged for a closer look

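Among 109 members, listed genes of translation and neighbors with values on all 4 arrays, 5 (4.59%) had 1 array apart from the others, where the gap to the nearest array divided by the whole range exceeded Dixon's critical value for 4 samples. Chance gives about 5% of such groups. MRP1 (mS43 of the small subunit) had a ratio of gap to range of 0.965, with 0.66 on SC in Cy5 replicate 1 against 0.12, 0.13 and 0.14 on the others, and was not called (0.26, adjusted p of limma 0.061). Its mean was 0.13 (adjusted p = 0.102) without that array, and it was called without MM in Cy5 replicate 1 (0.31, adjusted p = 0.0475). MRPL9 (uL3m) had 0.848, with -0.10 on that same array against 0.17, 0.21 and 0.16, and was called higher only when that array was left out (0.18, adjusted p = 0.0411, against 0.11 and an adjusted p of 0.203 with it). MRPL50 (bL9m) had 0.863, with 0.17 on SC in Cy5 replicate 2 against 0.34, 0.36 and 0.33, and was called higher (0.30, adjusted p = 0.00399). Among neighbors, PXP2 next to RSM7 had 0.98, with -2.47 on SC in Cy5 replicate 1 against -2.18 to -2.19. WSC2 next to MRPL10 had 0.971, with 0.57 on MM in Cy5 replicate 2 against 0.67 on each of the others.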

How the results depend on the processing

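No member called higher or lower changed sign under any alternative. Of the 35 calls, leaving out 1 array lost 4 to 11 and gained 0 to 4, each gene's own variance kept 24, and a dye orientation term added 12. The share of all ORFs called moved too, from 65.3% with all arrays to between 55.7% and 62.7% without 1 array. It was 51.6% with each gene's own variance and 73.4% with the dye orientation term. Leaving out arrays gave 10 to 15 higher and 3 to 7 lower genes in the large subunit, and 5 to 9 higher and 5 to 6 lower genes in the small subunit. Each gene's own variance gave 3 lower genes in the large subunit. The dye orientation term gave 14 higher genes in the small subunit. So did the study's threshold, which is a less strict cutoff on the same fit. The cause of the other shifts was not tested. The deviations of same-numbered arrays from their orientation means were barely correlated (r = 0.0121 over 5231 ORFs). With 2 arrays per orientation, this cannot tell whether same-numbered arrays share a culture. With the replicate block the large subunit had 12 higher and 4 lower genes and the small subunit 6 and 5, with medians of 0.11 and 0.13, and the block kept 29 of the 35 calls. The crossed block, chosen after seeing the data, gave the same counts by subunit and kept 28 of the 35 calls. The large minus the small median ranged from -0.06 to 0.00 without 1 array, and was -0.01 with MRP35 counted to the large subunit and -0.07 without the 6 genes far from the rest, both chosen after seeing the data. With 2 deviations in place of 3, MRPL20 and MRP4 were also far from the rest, making 8.

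Genes with a reversed sign had means near 0 and were not called. Centering gave -0.03 for MRPL37, -0.02 for RML2 and -0.03 for YKL169C, and centering with scaling gave -0.02, -0.02 and -0.03. Leaving out arrays gave -0.02 to 0.04 for MRPL37, -0.07 to 0.04 for RSM23, -0.06 to 0.03 for EHD3, -0.09 to 0.03 for CBS2, -0.02 to 0.03 for RML2 and -0.11 to 0.13 for YJR114W. It gave -0.10 to 0.07 for YKL169C, -0.05 to 0.03 for MSS51, -0.11 to 0.02 for HSC82, -0.11 to 0.06 for GCV2 and -0.07 to 0.07 for SGS1. Of 83 named genes, 46 kept direction and call throughout, among them 16 of 28 members. Precision is limited by having 4 arrays, and 3 members carried no value.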
